A study of Homo sapiens with 6 samples.

Results

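The chaperonin CCT, also called TRiC, is built from 8 different subunits, and the genes described here are those 8: TCP1, CCT2, CCT3, CCT4, CCT5, CCT6A, CCT7 and CCT8. They were taken by symbol from a table of 58825 genes, and all 8 were found. The cells were MDA-MB-231, a long-established line of human triple-negative breast cancer. They were kept for 24 h either in DMSO, the vehicle, or in DSF/Cu, which is disulfiram given together with copper, at 0.2 µM. Disulfiram, a drug against alcohol dependence, blocks aldehyde dehydrogenases, and its metabolite forms a complex with copper. Each group held 3 repeats, each pooled from 3 wells of a 6-well plate, and every library carried the same line with no genetic change named in the labels. One line at 1 dose and 1 time stands for each group, and nothing says that the repeats were grown as separate cultures, so the p-values cover only how far these samples scatter, and that scatter may be technical.

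CCT/TRiC is the chaperonin of the eukaryotic cytosol. Its subunits are related in sequence and sit in a fixed order in a pair of stacked rings, and ATP binding and hydrolysis close the rings over an unfolded protein. Actin and tubulin are its best known clients, many proteins with WD40 propellers also pass through it, and prefoldin hands clients over to it. A complete ring needs every subunit, TCP1 being the one also called CCT1 or alpha.

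Total counts were 62165212 to 70883177 per library in DMSO and 55563223 to 61633168 in DSF/Cu. Of 7 genes that mark MDA-MB-231 cells, all were measured, at 10.6 to 610.4 FPKM (fragments scaled by gene length and library size), while 7 genes of luminal or basal breast cells reached at most 0.888 FPKM. The protocol text mentions an adipose source. The adipocyte gene ADIPOQ had 0 counts in the 6 libraries together and PLIN1 had 12. Among 10 genes of other cell types, PECAM1 had the highest value, 0.0996 FPKM. The summed level of the 7 line markers was 1382 to 1433 FPKM in DMSO and 1086 to 1196 FPKM in DSF/Cu, and the part of this difference in the results below was not tested.

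DSF/Cu was compared with DMSO to see whether the subunit mRNAs moved, and whether they moved together. They did not all move one way. TCP1 was raised 1.37-fold, CCT3 1.16-fold and CCT7 1.11-fold, CCT6A was lowered to 0.871 of its DMSO level, and CCT2, CCT4, CCT5 and CCT8 did not pass the test. A call here is an adjusted p under 0.05 in edgeR's quasi-likelihood test, with Benjamini-Hochberg adjustment over 18229 tested genes, on counts scaled by TMM, a method that sets the bulk of genes level between libraries. By that call 18.5% of all tested genes were raised (3365) and 16.8% lowered (3059). Calls were made for 4 of the 8 subunits, for 35.2% of all tested genes and for 55.0% of the 2151 tested genes with a mean of at least 100 CPM (counts after that scaling), a range that takes in every subunit. The 8 log2 changes had a median of 0.16, against 0.0023 over all tested genes. Their sizes were small: the median absolute log2 change was 0.16 for the subunits, 0.41 for all tested genes and 0.28 for those 2151 genes.

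TCP1 (ENSG00000120438, chr6:159778498-159789703, minus strand, GRCh38) encodes the alpha subunit. Its TMM-scaled levels were 289, 315 and 307 CPM in the 3 DMSO libraries and 399, 376 and 472 CPM in the 3 DSF/Cu libraries. Every DSF/Cu library lay above every DMSO library, and the third DSF/Cu library was the highest. The log2 change was 0.45 ± 0.09 (SE, n = 3 per group), with a 95% interval of 0.24 to 0.67 and an adjusted p of 0.00962 by edgeR. Without the third DSF/Cu library it was 0.36, with an edgeR adjusted p of 0.0117. When counts were scaled only by library totals, it was 0.27 with an adjusted p of 0.0636 by edgeR, which no longer passes.

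CCT6A (ENSG00000146731, chr7:56051685-56063989, plus strand), the zeta subunit, was the subunit that fell. It measured 553, 612 and 593 CPM in DMSO and 492, 506 and 534 CPM in DSF/Cu. All 3 DSF/Cu libraries lay under all 3 DMSO libraries. The log2 change was -0.20 ± 0.06 (SE, n = 3 per group), with a 95% interval of -0.34 to -0.06 and an edgeR adjusted p of 0.0338. Under total-count scaling it was -0.38, with an edgeR adjusted p of 0.00315. The call was lost in 4 of 6 fits that left out 1 library: edgeR's adjusted p was 0.101 without DMSO 2, 0.0875 without DMSO 3, 0.0877 without DSF/Cu 1 and 0.0982 without DSF/Cu 2.

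CCT3 (ENSG00000163468, chr1:156308968-156367873, minus strand), the gamma subunit, measured 539, 584 and 579.6 CPM in DMSO and 673, 651 and 646 CPM in DSF/Cu. The groups did not overlap. Its log2 change was 0.21 ± 0.05 (SE, n = 3 per group; edgeR adjusted p = 0.0157), and 0.02 with an edgeR adjusted p of 0.688 under total-count scaling. CCT7 (ENSG00000135624, chr2:73233420-73253021, plus strand), the eta subunit, was at 534, 542 and 537 CPM in DMSO and at 619.7, 606 and 572 CPM in DSF/Cu. Here too the groups were apart, with the DMSO libraries close together. Its log2 change was 0.16 ± 0.05 (SE, n = 3 per group; edgeR adjusted p = 0.0366), and it turned to -0.03 under total-count scaling. The CCT7 call was lost in 5 of the 6 fits without 1 library, at edgeR adjusted p of 0.0795 to 0.104. Only the fit without DSF/Cu 3 kept it, at an edgeR adjusted p of 0.0275.

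The other 4 subunits did not pass. CCT4 (delta, ENSG00000115484, chr2:61868085-61888671, minus strand) measured 388, 414 and 373 CPM in DMSO and 463, 441 and 415 CPM in DSF/Cu. CCT8 (theta, ENSG00000156261, chr21:29055805-29073797, minus strand) measured 362, 411 and 399 CPM in DMSO and 429, 443 and 435 CPM in DSF/Cu. Both were a little higher in every DSF/Cu library. Their log2 changes were 0.17 ± 0.06 and 0.16 ± 0.06 (SE, n = 3 per group), with edgeR adjusted p of 0.0812 and 0.0807. DESeq2, the alternative tool, called both raised, at adjusted p of 0.0124 and 0.0101.

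CCT2 (beta, ENSG00000166226, chr12:69585426-69601570, plus strand) was at 304, 337 and 328 CPM in DMSO and at 327, 327 and 332 CPM in DSF/Cu. CCT5 (epsilon, ENSG00000150753, chr5:10249929-10266389, plus strand) was at 710.4, 897 and 766 CPM in DMSO and at 854, 772 and 757 CPM in DSF/Cu. For both the groups overlapped. The 95% interval of the log2 change was -0.10 to 0.15 for CCT2 (edgeR adjusted p = 0.734) and -0.22 to 0.23 for CCT5 (edgeR adjusted p = 0.970). DMSO 2 held the highest CCT5 level. In all, 6 of the 8 subunits had groups that did not overlap, against 51.2% of all tested genes and 68.7% of the 2151 genes of at least 100 CPM.

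**Figure D1:**
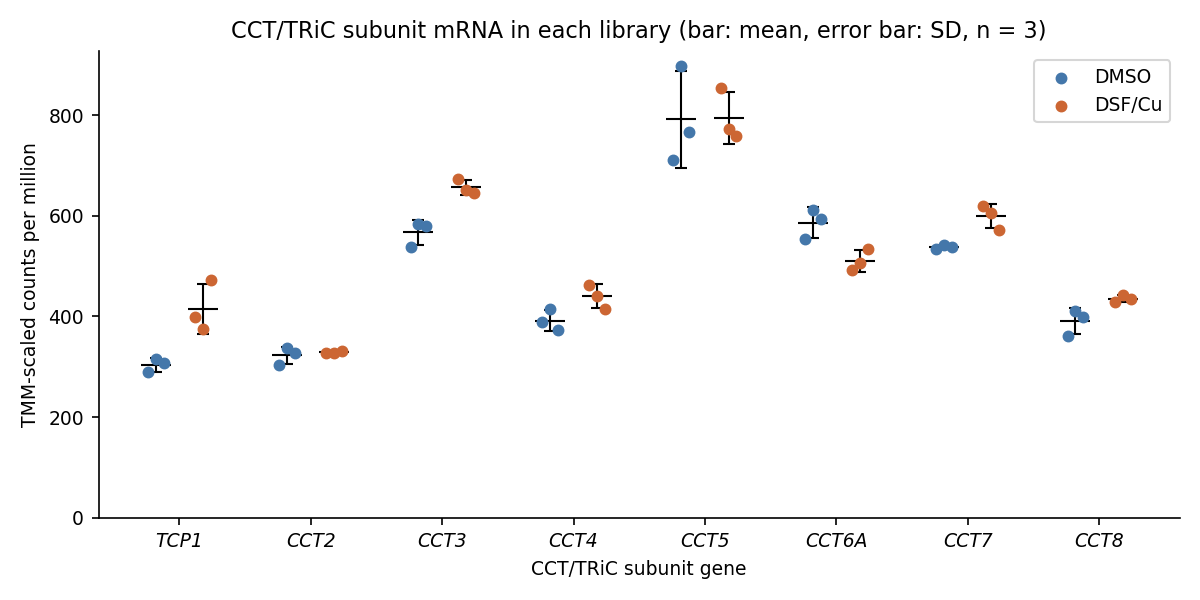
TMM-scaled CPM of each CCT/TRiC subunit gene in the 3 DMSO and 3 DSF/Cu libraries, with the mean as a bar and the SD as an error bar. TCP1 stands higher in DSF/Cu (376 to 472 against 289 to 315 CPM) and CCT6A lower (492 to 534 against 553 to 612 CPM), while CCT2 and CCT5 overlap.

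The direction of most subunits depended on the scaling. Scaling by library totals lowered the median log2 change of all tested genes to -0.18, with 2356 genes raised and 4856 lowered, and the 8 subunits shifted with it. TCP1 and CCT3 remained above 0, CCT6A remained below, and CCT2, CCT4, CCT5, CCT7 and CCT8 changed sign to lie between -0.18 and -0.020. CCT2 was then called lowered (log2 change -0.16, edgeR adjusted p = 0.0490), as it was on FPKM brought to one sum per library, a rescaling chosen after seeing the data (limma adjusted p = 0.00631). The deposited FPKM values gave nearly the same picture as total counts. By percent of all counts, the 8 genes together made up 0.396%, 0.436% and 0.413% of the DMSO libraries and 0.390%, 0.389% and 0.396% of the DSF/Cu libraries (two-sided exact permutation p = 0.2, where 0.1 is the smallest possible for 3 against 3). In TMM-scaled units the same sum was 3892 ± 216 CPM in DMSO and 4180 ± 68.9 CPM in DSF/Cu (SD, n = 3; exact permutation p = 0.1). The sum was thus higher on 1 scale and lower, with overlap, on the other. A scaling factor moves the 8 log2 changes alike, so the differences among them do not rest on it. In each of the 6 fits without 1 library TCP1 had the highest change of the 8 and CCT6A the lowest.

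**Figure D2:**
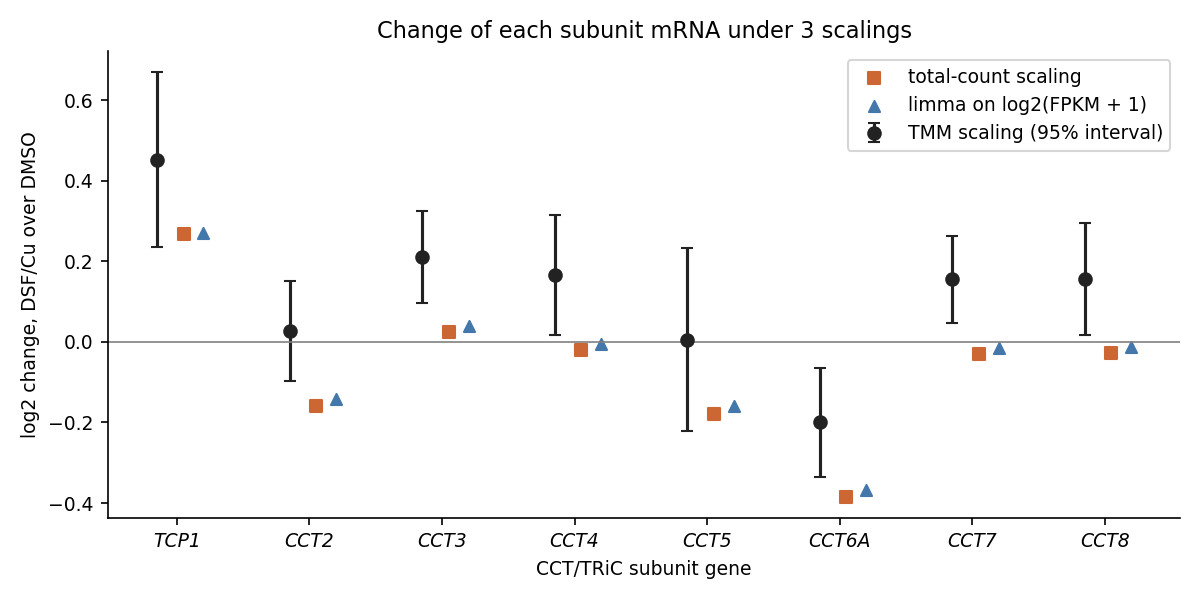
Log2 change of each CCT/TRiC subunit mRNA, DSF/Cu over DMSO, under TMM scaling (circles, with 95% intervals), under total-count scaling (squares) and on log2(FPKM + 1) (triangles). The 2 latter lie lower for every subunit, TCP1 is the highest and CCT6A the lowest on each, and CCT2, CCT4, CCT5, CCT7 and CCT8 are on different sides of 0.

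The proportions of the subunit mRNAs among themselves carry no library scaling. Each subunit's share of the summed FPKM of the 8 was computed per library. CCT6A made up 15.3%, 15.3% and 15.6% of the sum in DMSO and 11.8%, 12.5% and 13.1% of it with DSF/Cu. TCP1 made up 6.29%, 6.20% and 6.35% of the sum in DMSO and 7.53%, 7.29% and 9.12% of it with DSF/Cu. These were the 2 largest differences in share, -2.95 and 1.70 percentage points, and neither overlapped between groups. CCT3 was at 14.8% ± 0.336 in DMSO and 15.9% ± 0.136 with DSF/Cu, and CCT2 at 7.71% ± 0.117 and 7.29% ± 0.148 (SD, n = 3), also without overlap. For these 4 subunits the two-sided exact permutation p was 0.1, the smallest that 3 against 3 allows, and 0.2 after Benjamini-Hochberg adjustment over the 8 shares, so no share could pass 0.05. CCT4, CCT5, CCT7 and CCT8 overlapped between groups, with exact permutation p of 0.2 to 0.4 before adjustment. The log2 ratio of TCP1 to CCT6A counts, which also needs no library scaling, was -0.94, -0.96 and -0.95 in the DMSO libraries. It was -0.30, -0.43 and -0.18 with DSF/Cu (exact permutation p = 0.1). This pair holds the highest and the lowest change of the 8 in these same libraries. A difference in its ratio follows from that choice, so the p-value is descriptive and no separate test. These ratios scattered more among the DSF/Cu libraries than among the DMSO libraries.

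**Figure D3:**
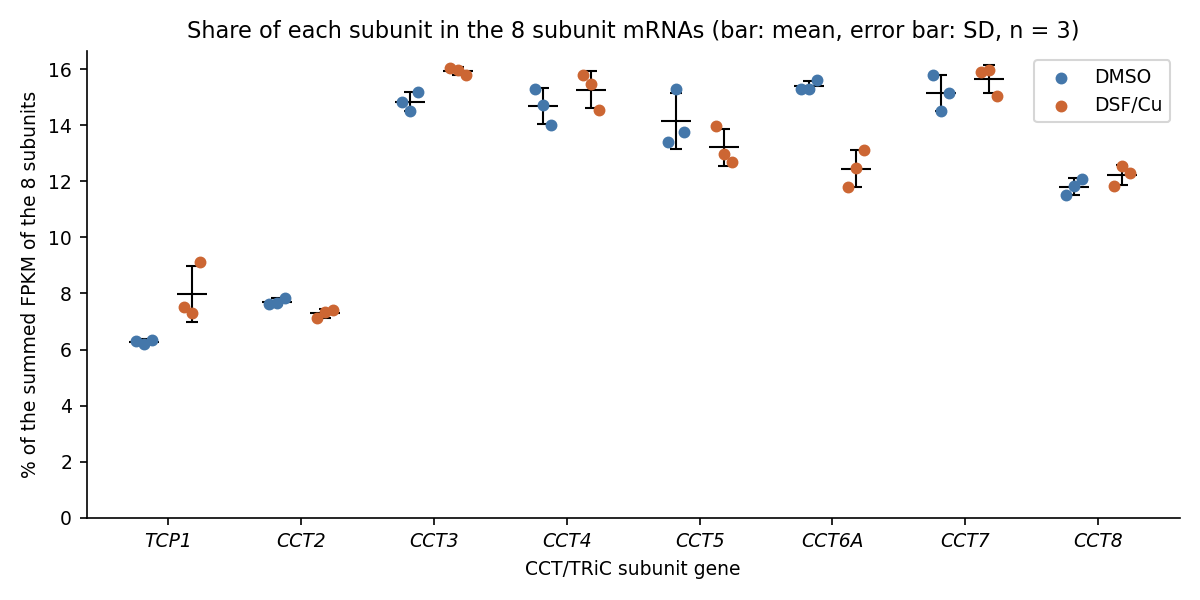
Share of each subunit in the summed FPKM of the 8 CCT/TRiC subunits in every library, in percent, with the mean as a bar and the SD as an error bar. CCT6A lies at 15.3 to 15.6% in DMSO and at 11.8 to 13.1% in DSF/Cu, and TCP1 at 6.20 to 6.35% and at 7.29 to 9.12%.

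Per unit of length, the subunit mRNAs were not present in equal amounts. In DMSO the order by mean FPKM (± SD, n = 3) began with CCT6A at 137.4 ± 6.15, CCT7 at 135 ± 0.278, CCT3 at 132 ± 4.95, CCT4 at 131 ± 6.36 and CCT5 at 126 ± 14.5. The ranges of neighbours among these 5 overlapped. Then came CCT8 at 105 ± 6.20, CCT2 at 68.8 ± 3.11 and TCP1 at 56.0 ± 2.05, each apart from the one before it. In DSF/Cu, CCT3 was highest at 136 ± 0.538, followed by CCT7 at 134 ± 3.49 and CCT4 at 130.3 ± 4.87, with overlapping ranges. CCT5 at 113 ± 5.27, CCT6A at 106 ± 6.27 and CCT8 at 104 ± 3.23 formed a lower group whose neighbours overlapped, and TCP1 at 68.2 ± 8.996 and CCT2 at 62.2 ± 1.58 overlapped at the bottom. CCT6A thus went from the first place to the fifth, and TCP1 from the last to the one before it. These levels rest on the gene length that the authors used, which moves the order between genes but not the change of 1 gene.

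The start regions of the subunit genes were searched for heat shock elements, since HSF1, the factor that binds them, is known to raise many chaperone genes. RefSeq windows on GRCh38.p14, from 250 bases before to 50 after each listed start, were found for 7 of the 8 subunits, with 9 windows in all. CCT6A had no entry. A pair of inverted units, GAANNTTC or TTCNNGAA, was found in 3 of these 9 windows, of 3 subunits, and 13.5% of 35116 promoter windows hold one. Each letter pattern reads the same on both strands, and the patterns overlap where units alternate further. The 3 windows of subunits are shown first. TCP1 was raised, while CCT2 and CCT4 did not pass in edgeR, though DESeq2 called CCT4 (adjusted p = 0.0124). CCT3 and CCT7 were raised, and their windows held no pair. HSPE1, also searched, was raised and its window held none, while HSPD1 did not pass in edgeR. HSPE1 and HSPD1 lie side by side on opposite strands. The stretch with the HSPD1 element, chr2:197500061-197500090, lies upstream of the deposited HSPE1 start at 197500140. The HSPE1 window begins only at 197500129 and could not hold that element, so no contrast between HSPE1 and HSPD1 is drawn. The windows of HSPA8 and HSPD1, which hold longer elements, follow those of the subunits. All windows shown run 5′ to 3′ on the strand of the gene, with the matched units in capitals.
TCP1 (231 bases before the start, chr6:159789815-159789844, minus strand): tcgtttgaggcGAAGGTTCaacctcttccc
CCT2 (89 bases before its other listed start, chr12:69585789-69585818, plus strand): cccggagcgaaGAAATTTCtagtgtgggac
CCT4 (39 bases after the start, chr2:61888607-61888636, minus strand): cccgacgccggcgccgctTTCTGGAAggtt
HSPA8 (230 bases before the start, chr11:123062346-123062375, minus strand): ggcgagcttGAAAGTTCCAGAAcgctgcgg
HSPA8 (55 bases before the start, chr11:123062171-123062200, minus strand): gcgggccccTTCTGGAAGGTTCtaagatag
HSPD1 (245 bases before its other listed start, chr2:197500061-197500090, minus strand): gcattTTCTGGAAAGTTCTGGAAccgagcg
Elements of at least 3 alternating units were in no window of a subunit and in 0.490% of all windows. The CCT4 window ends inside the place where the third unit would follow its match, so such an element could not be read there. HSPA8, the constitutive cytosolic HSP70, held 2 of them. The match of TCP1 lies past the start of MRPL18, the divergent neighbour gene. A match describes letters only, and the windows reach no further than 250 bases upstream. CCAAT, in either orientation, was present in 4 subunits (TCP1, CCT2, CCT3 and CCT8), in 1 window of each, and in 34.6% of all windows.

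The transcription factor genes themselves were listed as those tied to chaperonin genes. Of 10 tested, 5 were raised and 1 was lowered, against 18.5% and 16.8% of all tested genes. The raised count was 2 under total-count scaling and on log2(FPKM + 1), where 2356 and 1802 of all genes tested were raised. It was also 2 without DMSO 3, where the count over all genes is not set beside it here. HSF1 had 79.2, 62.8 and 73.2 CPM in DMSO and 78.0, 63.2 and 65.8 CPM in DSF/Cu, with overlap and a log2 change of -0.06 ± 0.12 (SE; edgeR adjusted p = 0.750). HSF2 rose by a log2 change of 0.67 ± 0.09 (edgeR adjusted p = 0.00216). GABPA, an ETS factor, went from 20.5 ± 1.301 to 42.8 ± 2.39 CPM (SD, n = 3), a log2 change of 1.06 with an edgeR adjusted p of 0.000283. RUNX1 and STAT3 rose by 0.40 and 0.28 on the log2 scale (edgeR adjusted p of 0.0158 and 0.0162), and both lost their call under total-count scaling. Leaving out DMSO 2 or DMSO 3 also ended the calls of both, and leaving out DSF/Cu 1 that of RUNX1 (edgeR adjusted p of 0.0501 to 0.0586). MYC scattered widely, at 7.19, 151 and 149.9 CPM in DMSO and 209, 187 and 73.1 CPM in DSF/Cu. The groups overlapped, and the log2 change was 0.61 ± 0.96 (edgeR adjusted p = 0.671).

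Several subunit genes begin close to another gene on the opposite strand. By the deposited gene coordinates TCP1 and MRPL18, a protein of the mitochondrial ribosome, start 109 bp apart. The TCP1 start in those coordinates differs from the RefSeq start that the sequence windows above are counted from. MRPL18 was at 64.1, 64.7 and 68.4 CPM in DMSO and at 99.8, 95.2 and 97.5 CPM in DSF/Cu, a log2 change of 0.57 ± 0.06 (SE; edgeR adjusted p = 0.000610). It was thus raised beside TCP1. CCT6A and PSPH, the last enzyme of serine synthesis, start 218 bp apart. PSPH went from 25.1, 30.2 and 26.6 CPM to 20.7, 18.9 and 16.0 CPM, a log2 change of -0.56 ± 0.13 (edgeR adjusted p = 0.0147), and was lowered beside CCT6A. Under TMM scaling CCT7 and PRADC1 moved in opposite directions, PRADC1 from 15.1 ± 0.213 to 11.8 ± 0.104 CPM (SD, n = 3; log2 change -0.35, edgeR adjusted p = 0.0201). The PRADC1 call was lost without DMSO 1, DMSO 2, DSF/Cu 2 or DSF/Cu 3 (adjusted p of 0.0517 to 0.0639 by edgeR). The CCT7 call was lost in most fits without 1 library. Under total-count scaling both log2 changes were negative, -0.030 for CCT7 and -0.54 for PRADC1. COMMD1 beside CCT4, ATPSCKMT beside CCT5 and TSACC beside CCT3 did not pass, and MIR3913-1 beside CCT2 and RHBG beside CCT3 had 0 counts in all 6 libraries. The 2 neighbours of CCT3 lie near different starts of it. TSACC starts 978 bp from the RefSeq start, inside the gene by the deposited coordinates. RHBG starts 1338 bp from the deposited start.

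Other genes abut or overlap the ends of CCT6A and TCP1, and the strand setting of the counting is not given in the sources used here. SUMF2 and ACAT2 are described after their values were seen. SUMF2, an enzyme-like protein of the endoplasmic reticulum, starts 13 bp past the end of CCT6A on the same strand. It had 98.6, 137 and 95.3 CPM in DMSO and 39.9, 75.6 and 66.5 CPM in DSF/Cu, a log2 change of -0.86 ± 0.26 (SE; edgeR adjusted p = 0.0401), and its counts came to 16.0% of those of CCT6A. The SUMF2 call was lost in each fit without 1 library except that without DSF/Cu 2 (edgeR adjusted p of 0.0506 to 0.116). ACAT2, a cytosolic thiolase of sterol synthesis, overlaps the end of TCP1 on the opposite strand. It fell from 96.1 ± 2.87 to 73.4 ± 1.05 CPM (SD, n = 3), opposite to TCP1 (log2 change -0.39, edgeR adjusted p = 0.00203). Reads of the overlap cannot be told apart between TCP1 and ACAT2 without strand, and whether reads past CCT6A's end were counted for SUMF2 was not tested.

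**Figure D4:**
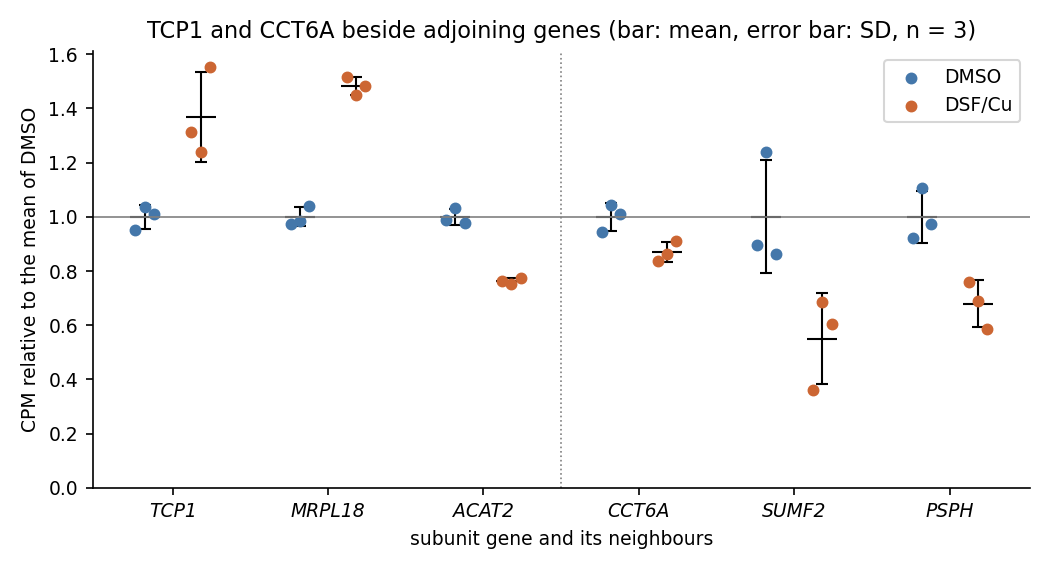
Level of TCP1 and CCT6A and of their adjoining genes in each library, as CPM relative to the mean of the 3 DMSO libraries, with the mean as a bar and the SD as an error bar. MRPL18 is raised like TCP1 while ACAT2 is lowered (96.1 to 73.4 CPM on average), and PSPH and SUMF2 are lowered like CCT6A.

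Near-identical copies could take reads from the subunits. The table lists 13 pseudogenes of them, and 5 reached 10 counts in a library: CCT8P1, CCT6P1, CCT6P3, CCT5P1 and TCP1P3. The highest was CCT8P1, with 238 to 294 counts, where CCT8 itself had 22991 to 27601. CCT6P1 held 173 to 282 counts and CCT6P3 137 to 236, where CCT6A held 27729 to 42165. None of the 5 passed the test (edgeR adjusted p of 0.126 to 0.817), and their counts were small beside those of the subunits.

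The more distant relatives of the subunits were little expressed or mixed in direction. CCT6B, the testis form of the zeta subunit, had 29 counts in DMSO 1 and 0 in the other 5 libraries, and CCT8L2 had 0 in all 6. Of the chaperonin-like proteins that assemble the BBSome of the cilium, MKKS fell from 75.9 ± 5.41 to 42.2 ± 2.60 CPM (SD, n = 3; log2 change -0.85, edgeR adjusted p = 0.000569). BBS12 rose from 5.28 ± 0.506 to 7.47 ± 0.740 CPM (log2 change 0.50, edgeR adjusted p = 0.0357), a call lost in each fit without 1 library except that without DSF/Cu 3 (edgeR adjusted p of 0.0637 to 0.104). BBS10 measured 18.7 ± 1.28 and 15.1 ± 1.31 CPM and did not pass (edgeR adjusted p = 0.0627). Under total-count scaling BBS10 was called lowered (edgeR adjusted p = 0.0105), as by DESeq2 (adjusted p = 0.0166), while the BBS12 call was lost (edgeR adjusted p = 0.131).

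Prefoldin, the hexamer that brings nascent actin and tubulin to the chaperonin, had 3 of its 6 subunit genes raised and 0 lowered, where 18.5% and 16.8% of all tested genes were. Total-count scaling left 1 raised, where 2356 of all tested genes were. DESeq2 called 5. It called 4364 of all genes tested raised, against 3365 by edgeR, so no gain over the 3 is read from the 5. PFDN4 rose most, from 43.9, 47.4 and 45.3 CPM to 73.2, 78.2 and 72.1 CPM, a log2 change of 0.71 ± 0.06 (SE; edgeR adjusted p = 0.000483). PFDN6 rose by 0.35 ± 0.06 (edgeR adjusted p = 0.00417) and PFDN2 by 0.20 ± 0.06 (edgeR adjusted p = 0.0457). The PFDN2 call was lost in each of the 6 fits without 1 library, at edgeR adjusted p of 0.0527 to 0.126. The other members had log2 changes of 0.22 for PFDN1, 0.19 for VBP1 and 0.22 for PFDN5, with edgeR adjusted p of 0.155, 0.0507 and 0.0594. DESeq2 called VBP1 and PFDN5 (adjusted p of 0.00217 and 0.00495). Under total-count scaling PFDN2 and PFDN6 no longer passed (edgeR adjusted p of 0.847 and 0.0575).

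Among 7 tested genes for proteins that bind the chaperonin or pass clients to it, 4 were raised and 2 lowered, against 18.5% and 16.8% of all tested genes. HSPA8 was at 2411, 2354 and 2489 CPM in DMSO and at 5101, 4651 and 5303 CPM in DSF/Cu. That is a log2 change of 1.05 ± 0.06 (SE; edgeR adjusted p = 8.55e-05), far above the change of any subunit. PDCL, the phosducin-like protein that helps CCT/TRiC assemble G protein beta-gamma dimers, rose by 0.72 ± 0.09 (edgeR adjusted p = 0.00143). TXNDC9, also a phosducin-like protein, rose by 0.44 ± 0.09 (edgeR adjusted p = 0.0122), and PPP4C, a phosphatase catalytic subunit, by 0.48 ± 0.07 (edgeR adjusted p = 0.00230). PDCL3, of the same phosducin-like family, stayed at a log2 change of 0.03 ± 0.08 and did not pass (edgeR adjusted p = 0.815). The TXNDC9 call was lost under total-count scaling (edgeR adjusted p = 0.0788). STUB1, the ubiquitin ligase CHIP that works with HSP70, fell from 37.3 ± 1.60 to 19.3 ± 0.616 CPM (SD, n = 3; edgeR adjusted p = 0.000271). PDCD5 fell by 0.30 on the log2 scale (edgeR adjusted p = 0.0482), a call lost in each fit without 1 library except that without DSF/Cu 1 (edgeR adjusted p of 0.0516 to 0.126). PDCL2 had 3 counts in all and was not tested.

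The prefoldin-like and R2TP proteins, which assemble RNA polymerases and PIKK kinases, included 1 raised and 2 lowered of 10 tested genes (18.5% and 16.8% over the whole table). The lowered count was 5 under total-count scaling, where 4856 of all tested genes were lowered, against 3059 under TMM. It was 6 on FPKM brought to one sum per library, where 5380 of all genes tested there were lowered. On log2(FPKM + 1) it was also 5, and the count over all genes is not set beside that here. PDRG1 rose from 46.0 ± 1.49 to 87.0 ± 1.77 CPM (SD, n = 3; edgeR adjusted p = 0.000124). RUVBL1, an AAA+ ATPase, fell from 195 ± 7.90 to 120.2 ± 4.47 CPM (edgeR adjusted p = 0.000317), and URI1 fell by 0.35 on the log2 scale (edgeR adjusted p = 0.00294). The chaperonin of mitochondria, a double ring like CCT/TRiC but in another compartment, had 1 of its 2 genes raised, against 18.5% of all tested genes. HSPE1, its co-chaperonin lid, was at 198, 218 and 212 CPM in DMSO and at 398, 404 and 396 CPM in DSF/Cu (log2 change 0.93 ± 0.05, edgeR adjusted p = 9.29e-05). HSPD1, its ring subunit, was at 1349, 1473 and 1442 CPM in DMSO and at 1558, 1549 and 1533 CPM in DSF/Cu. Its log2 change of 0.12 ± 0.04 did not pass (edgeR adjusted p = 0.0750), though DESeq2 called it raised (adjusted p = 0.00992) and total-count scaling turned its sign (-0.063).

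Several abundant tubulins, the classic clients, were lowered. Of 14 actin and tubulin genes, 6 were lowered and 3 raised, against 16.8% and 18.5% of all tested genes. TUBB went from 3498, 3579.6 and 3513 CPM in DMSO to 2045, 2064 and 2093 CPM in DSF/Cu, a log2 change of -0.77 ± 0.03 (SE; edgeR adjusted p = 3.43e-05). TUBA1B and TUBA1C, 2 alpha-tubulin genes, had log2 changes of -0.70 and -0.56 (edgeR adjusted p of 0.000487 and 0.000588). TUBB2A moved the other way, from 58.7 ± 7.74 to 173 ± 13.0 CPM (SD, n = 3; log2 change 1.56, edgeR adjusted p = 0.000215). The actins ACTB and ACTG1, named here as the best known clients after their values were seen, did not pass (edgeR adjusted p of 0.135 and 0.0723). ACTG1 was called raised by DESeq2 (adjusted p = 0.0404) and without DSF/Cu 3 (edgeR adjusted p = 0.00409), and ACTB without DSF/Cu 2 (edgeR adjusted p = 0.0292). ACTB was at 3527, 3165 and 3026 CPM in DMSO and at 5902, 3232 and 4209 CPM in DSF/Cu, with wide scatter in DSF/Cu. Of 8 tubulin cofactors, which take tubulin from the chaperonin, 1 was lowered and 0 were raised, against 16.8% and 18.5% of all tested genes. The lowered gene was TBCD, with a log2 change of -0.33 (edgeR adjusted p = 0.0129).

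Of 24 WD40 proteins and other listed clients, 7 were lowered and 2 raised, against 16.8% and 18.5% of all tested genes. In both directions together these 9 calls are 37.5% of the list, near the 35.2% called among all tested genes, but most were lowered. The counts were 13 lowered and 0 raised under total-count scaling, where 4856 and 2356 of all tested genes were. They were 11 lowered and 4 raised by DESeq2. Its own counts over all tested genes are not set beside them here, so no gain over edgeR is read from them. CDC20, an activator of the anaphase-promoting complex and a WD40 client, went from 259.6, 253 and 262 CPM to 135, 133 and 138 CPM (log2 change -0.93 ± 0.05, SE; edgeR adjusted p = 5.70e-05). PLK1, a mitotic kinase, fell by 1.43 on the log2 scale (edgeR adjusted p = 0.000169). GNB4, a G protein beta subunit, fell by 0.69 (edgeR adjusted p = 0.000551), and MLST8, a WD40 subunit of mTOR complexes, by 0.79 (edgeR adjusted p = 0.00191). The 9 lists of relatives, partners, regulators and clients held 84 tested genes, of which 20 were raised and 20 lowered, and their median log2 change was -0.01. Calls thus covered 47.6% of the 84, against 35.2% of all tested genes and 55.0% of those with a mean of at least 100 CPM. These lists were chosen with earlier results of the same libraries known, so their counts are descriptions. Under total-count scaling the counts became 11 raised and 32 lowered, where 2356 and 4856 of all tested genes were.

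**Figure D5:**
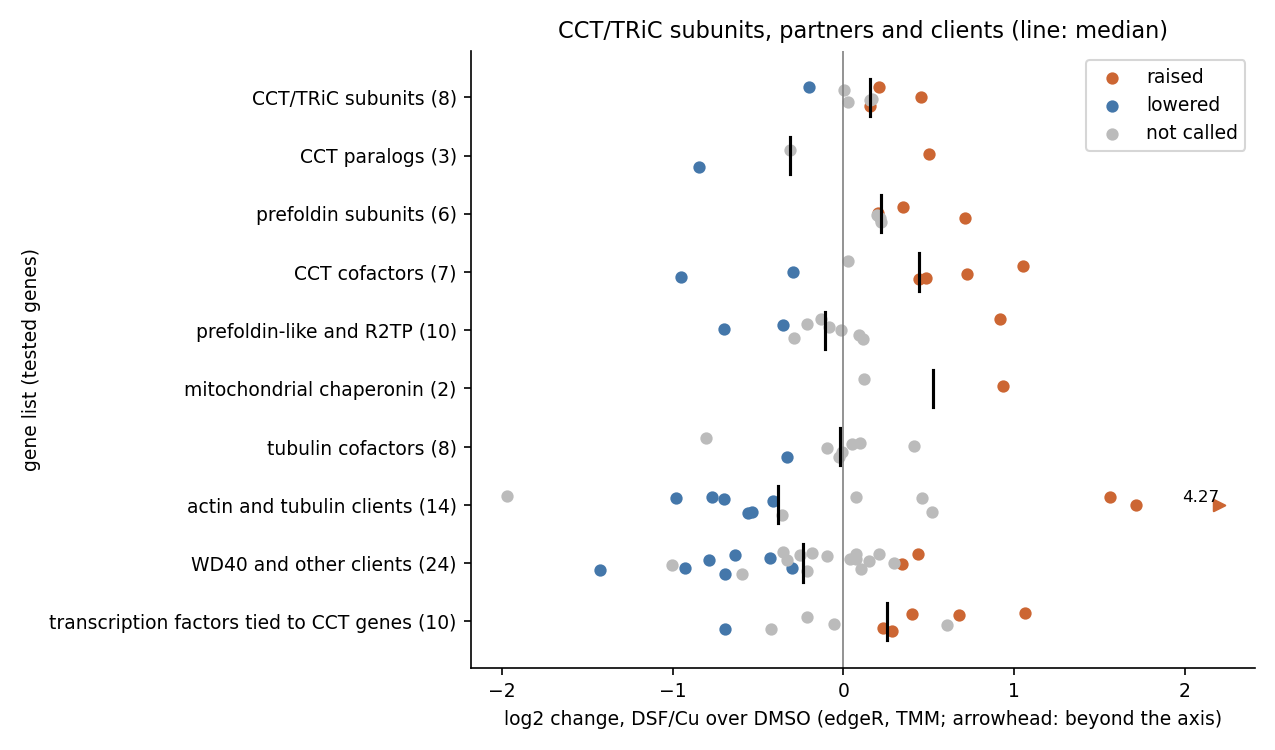
Log2 change, DSF/Cu over DMSO, of each tested gene of the CCT/TRiC subunits and of 9 related lists, with the list's median as a line and the call by color. The subunits lie between -0.20 and 0.45, closer together than the cofactors (-0.95 to 1.05) or the actin and tubulin genes. The prefoldin subunits, at 0.19 to 0.71, lie closer together than the CCT/TRiC subunits. The arrowhead among the actin and tubulin genes stands for TUBB4A at 4.27, with 4 counts in all DMSO libraries.

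The genes whose pattern was most like the mean of the 8 subunits were ranked over 6394 genes with a mean FPKM of at least 5. The measure was the root mean square difference of log2 CPM over the 6 libraries, each gene set relative to its DMSO mean. HSPD1 was nearest at 0.016, followed by DDRGK1 at 0.019, PNO1 at 0.027, EIF2S2 at 0.027 and DR1 at 0.028. These 5 were picked by that distance. The distance of each subunit from the mean of the 8 ran from 0.040 for CCT8 to 0.23 for CCT6A and 0.25 for TCP1. The mean of the subunits stood at 0.14, 0.10 and 0.13 in the DSF/Cu libraries and at -0.07, 0.07 and 0.00 in DMSO (0.0014 in the third).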

How the data were processed

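Poly(A) RNA was sequenced as paired-end libraries from 6 samples. The authors deposited 1 table with a whole-number count per gene and library, not scaled, per the file headers. They also deposited FPKM values (fragments scaled by length and library size) for the same libraries, per the file headers. Columns headed Control were taken as DMSO, the only group without the drug. HISAT2 2.0, StringTie 1.3.0 and Bowtie 0.12.2 appear in the submitters' processing notes, with no role. These notes list a mouse build, but 58552 of 58825 gene IDs occur in human GENCODE 29, so coordinates are given on GRCh38. How reads were counted, and whether by strand, is not given in the sources used here.

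Genes were kept by filterByExpr (18229), scaled by TMM and tested, two-sided, with edgeR 4.0.16 (quasi-likelihood F test; R 4.3.3), with Benjamini-Hochberg adjustment over all of them. Standard errors are the absolute log2 change over the square root of F. TMM factors were 1.060 to 1.076 in DMSO and 0.916 to 0.952 in DSF/Cu. Single values were compared by exact permutation over samples. Libraries of a group differed by a chi-square of 45.7 to 58.1 per degree of freedom, far above sampling noise, and all were kept. The steps were tested on simulated counts. They recovered 17 of 65 genes changed 1.5-fold, 32 of 63 changed 2-fold and 43 of 63 changed 4-fold. Among genes of at least 100 CPM, 8 of 10 were recovered at 1.5-fold. Of 17412 unchanged genes, 4 were called. No fold under 1.5 was simulated, and every subunit changed by less, so recovery of changes of that size was not tested. Alternatives were total-count and RLE scaling, no filter, a replicate block, DESeq2 1.42.0, limma 3.58.1 on log2(FPKM + 1) or log2(FPKM + 0.1) with mean FPKM of at least 1, and each library left out. A fit of FPKM rescaled to a common sum was added after seeing the data.

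The members and lists were chosen with earlier results of these data known. Genes named are the 8 subunits, all measured members of the paralog, prefoldin, cofactor and mitochondrial chaperonin lists, up to 4 called members by adjusted p of each other list, HSF1, MYC, pseudogenes with at least 10 counts in a library, genes starting within 2 kb on the opposite strand, and the 5 genes most like the subunits. Others are named as exceptions. TBCE has 2 rows, and the larger was used. Sequences are from RefSeq windows on GRCh38.p14.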

Additional observations from a re-analysis of the deposited data

How the results depend on the processing

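Precision is limited by 3 libraries per group and not by depth, since every subunit had at least 17560 counts in each library.

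Total-count scaling gave 4856 genes lowered, and 0 subunits raised and 2 lowered. The related lists then held 11 raised and 32 lowered genes, and the subunit median was -0.029. The log2 changes that turned sign were CCT2 -0.16, CCT4 -0.020, CCT5 -0.18, CCT7 -0.030, CCT8 -0.028, PDCL3 -0.16 and HSPD1 -0.063. On log2(FPKM + 1), 1802 genes were raised, 0 subunits were raised, 11 related genes were raised and the subunit median was -0.0145. The same 7 genes were negative there, with CCT2 at -0.14, CCT4 at -0.0053, CCT5 at -0.16, CCT7 at -0.016, CCT8 at -0.013, PDCL3 at -0.14 and HSPD1 at -0.048. On log2(FPKM + 0.1), these were 1803, 0 and 11 with a median of -0.0146, and CCT2 at -0.14, CCT4 at -0.0054, CCT5 at -0.16, CCT7 at -0.016, CCT8 at -0.013, PDCL3 at -0.14 and HSPD1 at -0.048. When each library's FPKM was brought to one sum, an alternative added after seeing the data, 1329 genes were raised and 5380 lowered, 0 subunits were raised and 4 lowered, 10 related genes were raised and 41 lowered, and the subunit median was -0.13. The sign then turned for CCT2 (-0.26), CCT3 (-0.080), CCT4 (-0.12), CCT5 (-0.28), CCT7 (-0.14), CCT8 (-0.13), PFDN1 (-0.075), PFDN2 (-0.090), VBP1 (-0.093), PFDN5 (-0.067), PDCL3 (-0.25), HSPD1 (-0.17) and STAT3 (-0.0081). These alternatives differ from TMM in scaling by their construction. DESeq2 called 5 subunits raised, where 4364 of all genes tested were raised. In edgeR these counts were 3 and 3365, so no gain over edgeR is read from the 5. Over the alternatives, the genes raised among all tested genes ran from 1329 to 4364. Without the filter on low counts CCT5 was at -0.014. The cause of these last changes was not tested.

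With 1 library left out, 0 to 1 subunits were lowered, 2 to 3 were raised, and 13 to 18 related genes were raised. The log2 change then ranged from -0.018 to 0.053 for CCT2, from -0.070 to 0.10 for CCT5, from -0.15 to 0.017 for HSF1 and from -0.0050 to 0.084 for PDCL3.

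The replicate numbers were not found to pair the samples, since the correlations of same-numbered deviations were 0.02, -0.0077 and 0.04 and DMSO 2 did not correlate best with its own number. With a replicate block, 2 subunits were raised and 1 lowered, CCT7 had a log2 change of 0.15 with an edgeR adjusted p of 0.0703, and 2692 genes were raised and 2451 lowered in all.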
